A study of Homo sapiens with 8 samples.

Results

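The response to Adriamycin (ADR, also called doxorubicin) was followed in MCF10A cells that lack p53. MCF10A is a non-tumorigenic line of human breast epithelial cells, and its p53-/- form was set beside p53+/+ cells of the same line in a study of genes regulated by p53. The 4 arrays described here are those labelled p53-/-, out of 8 arrays in all, and every comparison is a treated p53-/- array against the untreated p53-/- array. Cells were exposed to ADR at 0.5 µg/ml for 2 h per the labels (the study's methods give a higher concentration), and total RNA was taken 12, 24 or 48 h after treatment. The untreated cells were harvested at 0 h, the time of treatment, so that an effect of ADR and an effect of longer time in culture cannot be told apart. Nothing in the labels says whether the p53-/- line was 1 clone or how p53 was removed.

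ADR is an anthracycline that inserts between DNA bases and traps topoisomerase II on cut DNA, which leaves double-strand breaks. In cells with p53, this transcription factor is stabilised by the damage and switches on genes for cell cycle arrest and death, among them the CDK inhibitor gene CDKN1A. Other damage responses do not need p53: the kinases ATM and ATR hold cells in S or G2 phase, and broken DNA is also known to activate NF-κB and, through DNA sensors, the interferon pathway.

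Each array was 1 sample, so that no p-value is given, and a gene is said to have risen or fallen when its signal changed at least 2-fold (a log2 change of at least 1). A level is the log2 processed signal of a gene's probe minus the log2 75th percentile of that array, and a change is the difference of 2 levels. The only error that could be measured was that between spots of one array: for the genes singled out by rank or list, the SD that spots gave a log2 change ran from 0.027 to 0.558 with a median of 0.103. It does not hold the spread between cultures, which is unknown. Of 20296 genes with a named probe, 15470 were well above background on at least 1 of the 4 arrays and are called measured. The remaining genes were not measured and enter no count.

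The 75th percentile signal was 879 on the untreated array and 1119 to 1199 on the treated ones, and the share of probes well above background went from 55.9% at 0 h to 62.9% at 48 h. All 8 arrays lay on 1 slide with the p53-/- arrays in order of time, so that position and time cannot be told apart. The array labelled p53+/+ 0 h was less like the other arrays of its label than like the p53-/- ones: over the measured genes it correlated at 0.990 with the p53-/- 12 h array and at 0.982 with the untreated p53-/- array, but at 0.907 to 0.941 with the treated p53+/+ arrays. The p53-/- 12 h array correlated at 0.980 with the untreated p53-/- array, less closely than with the array labelled p53+/+ 0 h. The p53-/- 24 h and 48 h arrays also lay closer to that array (0.975, 0.959) than to the untreated p53-/- one (0.970, 0.952). The treated p53+/+ arrays correlated at 0.933, 0.913 and 0.900 with the untreated p53-/- array, less closely than with the array labelled p53+/+ 0 h. By this measure the untreated p53-/- array, the baseline used here, was the less like the treated arrays. Why was not tested, and each untreated group is 1 array. The array labelled p53+/+ 0 h matters because it is the only other untreated one, and its IL6 level was 1.97. Values of p53+/+ cells are therefore given mainly as levels on the treated arrays, which do not need that array. The p53+/+ 48 h array had 0 spike-in probes above background, where each of the other arrays had 6. Its 75th percentile signal was 661, the lowest of the 8, and all p53+/+ values at 48 h rest on it. What the missing spike-in signal means for these values was not tested. Of 13 basal breast epithelial markers, 12 were above background at 0 h and all 13 at 48 h. At 0 h 7 of 10 mesenchymal and 5 of 10 luminal markers were above background too. The median level at 0 h was 3.33 for the basal, -1.71 for the mesenchymal and -5.00 for the luminal markers.

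More genes had changed at each later time, and rises came to outnumber falls. At 12 h, 743 of the 15470 measured genes rose (4.80%) and 866 fell (5.60%). At 24 h, 1493 rose (9.65%) and 831 fell (5.37%), and at 48 h 2299 rose (14.9%) and 1158 fell (7.49%). Large changes grew more steeply, since 17 genes had risen at least 8-fold at 12 h, 81 at 24 h and 262 at 48 h, against 22, 16 and 29 that had fallen as far. A gene enters these counts also when it was above background on a treated array only. Over the 13113 genes well above background on all 4 arrays, 452, 827 and 1096 rose and 568, 635 and 990 fell, and 5, 27 and 49 rose at least 8-fold. The median change over all measured genes stayed near 0, at -0.01, 0.01 and 0.08. The excess of rises depended on the scaling, and without it 79.4%, 87.7% and 89.3% of the changed genes were rises at the 3 times, against 46.2%, 64.2% and 66.5% with it. All 3 comparisons share the untreated array, so that an error on that array would appear in each of them.

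**Figure D1:**
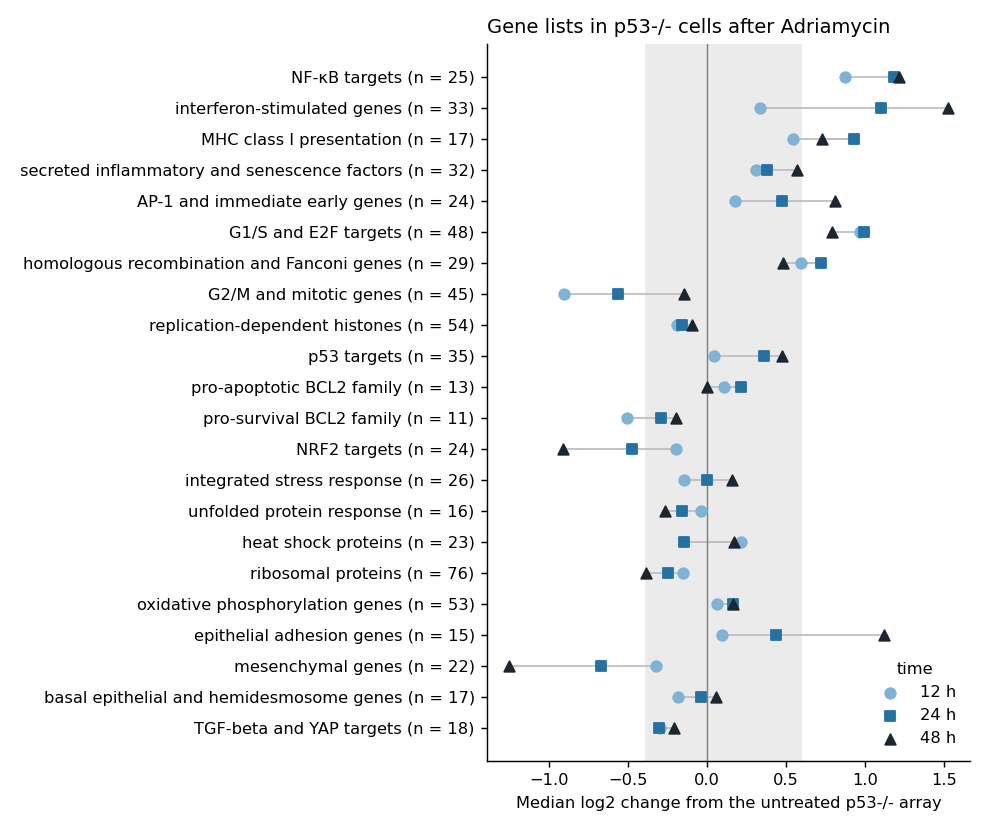
Median log2 change of 22 gene lists in the p53-/- arrays at 12 h (circles), 24 h (squares) and 48 h (triangles), each against the untreated array; n is the number of measured members, and the grey band is the interquartile range of all measured genes at 48 h. NF-κB targets, interferon-stimulated genes and G1/S genes lie to the right of the band at 24 h, while G2/M genes start on the left at 12 h and return, and NRF2 targets and mesenchymal genes move left with time.

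Inflammatory cytokines led the rises that lasted over all 3 times. IL6, a cytokine of acute inflammation, was at -3.52 on the untreated array and at 1.08, 2.20 and 2.50 at 12, 24 and 48 h, so that it rose 24.3-fold by 12 h and 65.1-fold by 48 h. CSF2, which encodes the growth factor GM-CSF, was not well above background before treatment (-5.46) and was at -0.47, -0.88 and -0.11 afterwards, at least 27.4-fold, 20.5-fold and 35.1-fold higher. LIF, another cytokine of the IL6 family, stood at -3.71 and then at 0.20, -0.70 and -0.74. The first of these continued upward after 12 h, while CSF2 and LIF had reached most of their rise by then. These rises rest on the untreated p53-/- array: against the array labelled p53+/+ 0 h, CSF2 changed by -0.93, -1.34 and -0.57, LIF by -2.08, -2.98 and -3.02, and IL6 by -0.89, 0.23 and 0.53. IL24, a cytokine of the IL10 family, followed a slower course, with levels of -2.33, -2.05, 0.66 and 1.72.

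Of 28 NF-κB targets, 25 were measured. Their median change was 0.87, 1.19 and 1.21 at 12, 24 and 48 h, and 11, 14 and 16 of the 25 rose, where 4.80%, 9.65% and 14.9% of all measured genes did. Against the array labelled p53+/+ 0 h the same medians were -0.57, -0.35 and -0.51, so that the direction of this group rests on the untreated p53-/- array. Adhesion and signalling genes were among the early ones. ICAM1, the leukocyte adhesion molecule, went from -3.45 to -0.13, -0.47 and -0.54. TRAF1, an adaptor of TNF receptors, was not well above background at 0 h (-6.47) and read -2.90, -3.66 and -3.86 after ADR, at least 5.06-fold higher at 12 h. Inhibitors and cytokines rose with them: TNFAIP3, which encodes the NF-κB inhibitor A20, went from -2.08 to -0.43, 0.20 and 0.22. IL1B, the gene of interleukin-1 beta, was at -1.39 and then 1.17, 0.70 and 1.24. Not every target moved: NFKBIA, the classical feedback inhibitor, changed by 0.15, 0.44 and 0.36, CXCL8 by 0.33, 0.32 and 0.32, and CXCL1, a neutrophil chemokine, fell by 1.51 at 12 h and was back at 5.36 by 48 h against 5.06 before treatment. TNF, LTB and CCL2 were not measured. Of 36 secreted inflammatory and senescence factors, a list that shares IL6, CSF2 and LIF, 32 were measured; 11, 12 and 12 rose and 4, 2 and 2 fell. Their median change was 0.31, 0.38 and 0.57, and -0.78, -0.64 and -0.59 against the array labelled p53+/+ 0 h.

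The promoters of IL6 and TNFAIP3 are shown because both genes rose at all 3 times and hold a match to GGGANTTTC, a strict core of the NF-κB site. The sequences are the RefSeq ones of GRCh38.p14, from 5′ to 3′ on the gene's strand, with the match in capitals. The IL6 stretch lies at chr7:22727097-22727165 and the TNFAIP3 stretch at chr6:137867163-137867231, both on the + strand.
IL6: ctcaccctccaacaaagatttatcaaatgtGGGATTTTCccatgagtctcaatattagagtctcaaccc
TNFAIP3: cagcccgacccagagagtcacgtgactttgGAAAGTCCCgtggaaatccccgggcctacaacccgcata
The match begins 73 bases before the start of IL6 and 66 bases before that of TNFAIP3, where it reads on the other strand. Within 250 bases before the start and on either strand, 9 of the 22 measured targets with a promoter sequence held this motif (40.9%), against 313 of 27305 promoters in all (1.15%). Members with and without the motif both rose: 4 of 9 with it and 10 of 13 without it had risen at 48 h. Outside the list, 134 measured genes held the motif, of which 28 had risen at 48 h (20.9%), beside 14.1% of the 12201 measured genes with a promoter sequence.

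**Figure D2:**
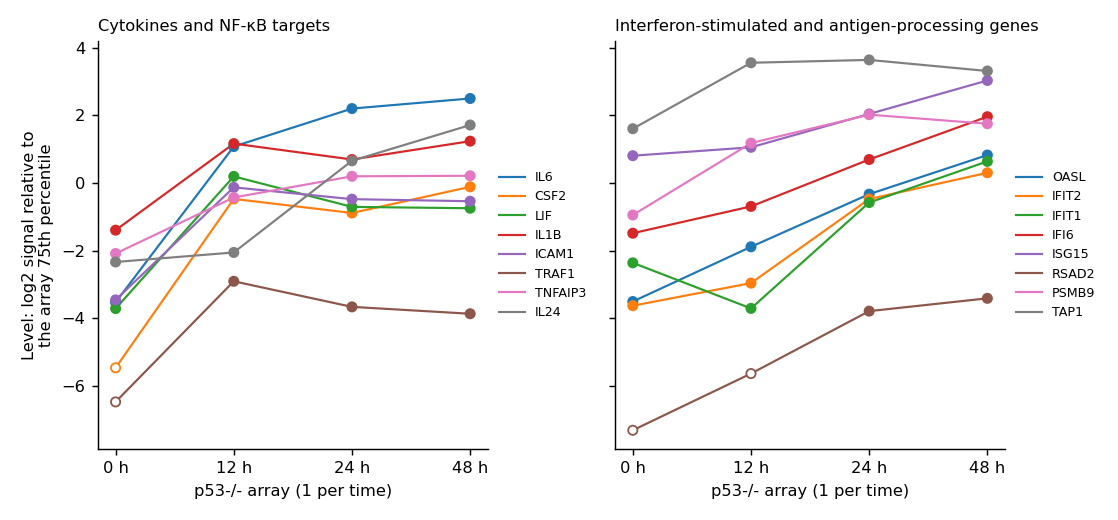
Levels of 16 genes on the 4 p53-/- arrays (log2 signal relative to the array's 75th percentile, 1 array per time); open circles mark values not well above background. Most of the cytokine and NF-κB genes on the left step up by 12 h, whereas the interferon-stimulated genes on the right gain most between 12 and 48 h (heights of different genes are not comparable).

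Interferon-stimulated genes rose later than the NF-κB targets. Of 38 such genes, 33 were measured, and 6 rose at 12 h, 18 at 24 h and 24 at 48 h, against 4.80%, 9.65% and 14.9% of all measured genes. The median change was 0.33, 1.10 and 1.53, or 0.20, 0.92 and 1.23 with values below background set at the lowest signal above it. OASL, a 2′-5′-oligoadenylate synthetase-like antiviral protein, was at -3.50 and then at -1.88, -0.33 and 0.83. IFIT2, which binds viral RNA, read -3.62, -2.96, -0.47 and 0.30. IFI6, an interferon-induced membrane protein, read -1.48, -0.69, 0.70 and 1.96. In all 3 genes the level was highest at 48 h. RSAD2, the gene of the antiviral enzyme viperin, was not well above background at 0 h or 12 h and was at least 2.75-fold and 3.57-fold higher at 24 h and 48 h. ISG15, a ubiquitin-like modifier, was at 0.81, 1.06, 2.04 and 3.03. IFIT1, which also binds viral RNA, went first down and then up, with -2.36, -3.70, -0.57 and 0.64. The only member that fell at 24 h and 48 h was IFI44L, at 1.49, 1.02, 0.22 and -0.14.

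The promoters of IFI6 and IFIT1 are shown because they hold more than 1 match to GAAANNGAA, the core of the interferon-stimulated response element. The IFI6 stretch is chr1:27672247-27672378 on the - strand and the IFIT1 stretch is chr10:89392478-89392559 on the + strand of GRCh38.p14, again from RefSeq with matches in capitals.
IFI6: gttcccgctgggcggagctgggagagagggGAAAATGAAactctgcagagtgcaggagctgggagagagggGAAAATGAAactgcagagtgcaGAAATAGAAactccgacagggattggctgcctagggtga
IFIT1: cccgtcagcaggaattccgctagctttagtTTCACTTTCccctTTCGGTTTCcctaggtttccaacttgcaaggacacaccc
IFI6 carried 3 matches and IFIT1 carried 2, the latter on the other strand. Of 26 measured interferon-stimulated genes with a promoter sequence, 16 held the motif (61.5%), against 7.06% of all promoters. With the motif 12 of 16 had risen at 48 h, and without it 6 of 10. Of the 675 measured genes outside the list with the motif, 110 had risen by then (16.3%), near the 14.1% of all measured genes with a promoter sequence.

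Genes of the MHC class I pathway, which loads peptides onto HLA molecules, rose in part and did not fall. All 17 were measured, and 3, 6 and 6 rose, where 4.80%, 9.65% and 14.9% of all measured genes did, while none fell at 12, 24 or 48 h. PSMB9, an immunoproteasome subunit, was at -0.94 and then at 1.18, 2.02 and 1.75, and TAP1, a subunit of the peptide transporter, was at 1.61 and then at 3.56, 3.64 and 3.31. HLA-C went from 4.83 to 5.47, 5.95 and 6.15. PSMB9 and TAP1 had made most of their rise by 12 h, whereas HLA-C climbed at each time. Over all 17 genes the median change was 0.54, 0.93 and 0.72. Against the array labelled p53+/+ 0 h it was smaller, at 0.25, 0.49 and 0.37.

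Cell cycle genes split by phase. Genes used at G1/S and in DNA replication, most of them E2F targets, were all measured (48 of 48). Their median change was 0.97, 0.99 and 0.79. At the 3 times 23, 24 and 19 of them rose, where 4.80%, 9.65% and 14.9% of all measured genes did, and none fell. Against the array labelled p53+/+ 0 h the median was smaller, at 0.41, 0.38 and 0.22. CDC6, which loads the replicative helicase, was at -4.30 and then at -1.95, -1.98 and -2.07. E2F2, one of the activating E2F factors, was at 1.34 and then at 3.49, 3.56 and 3.47. CCNE1, the gene of cyclin E1, was at 1.80 and then at 4.09, 3.82 and 3.18. The levels of CDC6 and E2F2 hardly moved between the treated arrays, while CCNE1 declined from its 12 h level. PCNA, the sliding clamp of DNA polymerase, went from 3.24 to 4.85, 5.07 and 4.74.

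The 45 genes of G2 and mitosis, all measured, showed the opposite sign, and their change shrank with time. Their median change was -0.91, -0.56 and -0.15; 19, 12 and 2 of them fell, where 5.60%, 5.37% and 7.49% of all measured genes did, and none rose at any time. The sign depended on the baseline and, at 48 h, on the scaling: the medians were 0.23, 0.57 and 0.97 against the array labelled p53+/+ 0 h, and 0.30 at 48 h without scaling. PLK1, the mitotic polo-like kinase, was at 1.61 and then at -0.72, -0.49 and 0.49. ASPM, a spindle pole protein, was at 4.03 and then at 2.15, 2.84 and 3.05. KIF20A, a kinesin of cytokinesis, was at 2.65, fell to 0.22, and was at 1.51 and 2.77 later. All 3 were lowest at 12 h, and KIF20A was back at its untreated level by 48 h. The falls that remained at 48 h were those of PLK1 and of CENPE, a kinetochore motor, at 2.08, 0.60, 0.77 and 0.85. On the treated p53+/+ arrays the same genes lay lower: 41, 42 and 43 of the 45 were at least 2-fold below their p53-/- level at 12, 24 and 48 h, with a median difference of -1.72 and -2.01 at 12 h and 24 h. At 48 h only 22 of them were well above background on the p53+/+ array, and the median difference was -6.05 with the dim ones set at the lowest signal above background, so that it is a bound. For the G1/S genes the median difference was -1.63 and -1.97 at 12 h and 24 h, and -3.70 at 48 h by the same rule, with 35 of 48 above background. Both 48 h differences rest on the p53+/+ array without spike-in signal above background.

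**Figure D3:**
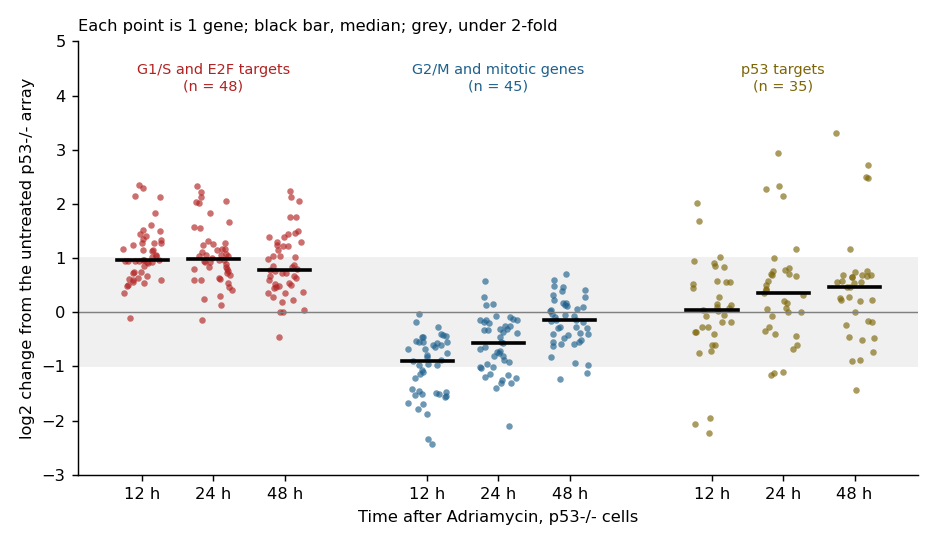
Log2 change of each measured G1/S gene (red, 48 genes), G2/M gene (blue, 45) and p53 target (brown, 35) on the 12, 24 and 48 h p53-/- arrays; black bars are medians and the grey band holds changes under 2-fold. At each time 47 of the 48 G1/S genes lie above 0, the G2/M genes lie lowest at 12 h, and most p53 targets stay inside the band.

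The promoters of E2F2 and PCNA hold TTTNNCGC, a short form of the E2F site, and those of PLK1 and ASPM hold TTTGAA, the cell cycle homology region (CHR) found in many G2/M genes. They are shown as examples of the 2 groups that moved apart. In GRCh38.p14 the RefSeq stretches are chr1:23531234-23531340 on the - strand, chr20:5126644-5126711 on the - strand, chr16:23678830-23678888 on the + strand and chr1:197146747-197146812 on the - strand.
E2F2: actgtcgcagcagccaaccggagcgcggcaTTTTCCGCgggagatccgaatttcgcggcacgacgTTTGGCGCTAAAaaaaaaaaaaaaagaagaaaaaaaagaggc
PCNA: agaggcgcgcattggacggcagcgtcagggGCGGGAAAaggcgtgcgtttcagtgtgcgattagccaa
PLK1: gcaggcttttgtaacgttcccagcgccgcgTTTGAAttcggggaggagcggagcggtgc
ASPM: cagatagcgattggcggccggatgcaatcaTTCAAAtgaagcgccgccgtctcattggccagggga
E2F2 holds 3 matches, the last pair overlapping on opposite strands, and the others hold 1 each. The E2F motif was found in 16 of 40 G1/S promoters (40.0%) and in 5.93% of all promoters. The CHR motif was found in 20 of 38 G2/M promoters (52.6%) and in 13.6% of all promoters. At 12 h, 8 of 16 G1/S genes with the E2F motif and 12 of 24 without it had risen, and 8 of 20 G2/M genes with the CHR motif and 10 of 18 without it had fallen. Other motifs were searched in the same window. TGANTCA, the AP-1 site, was in 0 of 18 promoters of immediate early genes and in 6.60% of all promoters. GAANNTTC, the core of the heat shock element, was in 9 of 21 heat shock promoters and 5.85% of all. TGACNNNGC, the antioxidant response element, was in 5 of 17 NRF2 target promoters and 3013 of all 27305, and TGATGNAA, an amino acid response element, in 3 of 22 stress response promoters and 3.19% of all.

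Genes of homologous recombination and of the Fanconi pathway, which repair double-strand breaks and crosslinks, had a median change of 0.60, 0.72 and 0.48. All 29 were measured, none fell, and 4, 8 and 5 rose, where 4.80%, 9.65% and 14.9% of all measured genes did, so that the share at 48 h was near that of all genes. EXO1, a nuclease that resects DNA ends, was at 1.26 and then at 2.85, 2.86 and 2.62. Among 23 checkpoint genes CLSPN, the CHK1 adaptor claspin, rose from -1.48 to -0.13, 0.08 and -0.10, and CDC25A, a phosphatase that activates CDKs, from 0.26 to 1.91, 1.60 and 1.51. H2AX, the histone marked at breaks, fell from 3.54 to 1.94, 2.24 and 2.40, and WEE1, a kinase that restrains CDK1, went from 0.45 to -0.61, -0.46 and -0.36. Of the 10 topoisomerase and adduct repair genes only TOP3A rose (1.02 at 48 h), TOP1MT fell at 24 h and 48 h and TDP1 at 48 h. TOP2A, the target of ADR, changed by -0.96, -0.32 and -0.14.

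Most p53 targets changed less than 2-fold. Of 36 well-known targets 35 were measured, with a median change of 0.04, 0.36 and 0.47, and 3, 6 and 5 rose while 3, 3 and 1 fell; the share that rose at 48 h was close to the 14.9% of all genes. MDM2, which encodes the ubiquitin ligase of p53, changed by -0.71, 0.00 and -0.24, and BAX, a pore-forming death protein, by 0.11, 0.18 and 0.00. A few targets did rise against the untreated p53-/- array. CDKN1A was at -2.97 and then at -0.96, -0.64 and -0.48. GDF15, a stress cytokine, was at -0.79 and then at 0.23, 2.15 and 2.51. PLK2, a polo-like kinase, was at -0.46 and then at 1.23, 1.81 and 2.27. These genes were higher on each treated array than before treatment. PMAIP1, which encodes the BH3-only death protein NOXA, was at -0.30 and then at 0.64, 1.85 and 2.19. Its level at 24 h and 48 h was above the 1.63 and 1.16 of the p53+/+ arrays. For the other 3 the p53+/+ levels were higher, with CDKN1A at 2.54, 2.63 and 2.70 and GDF15 at 8.83, 9.02 and 8.97. On the array labelled p53+/+ 0 h, CDKN1A was at -1.14, GDF15 at -0.07, PLK2 at 1.49 and PMAIP1 at 1.05. Against that array, CDKN1A and PLK2 in p53-/- cells stayed within 2-fold at all 3 times. GDF15 rose against it at 24 h and 48 h, and PMAIP1 at 48 h. Over all 35 targets the treated p53+/+ level exceeded the p53-/- level by 2.86, 2.81 and 2.64 in the median. TP53INP1, a target that promotes autophagy and death, was at -0.80 and then at -2.87, -1.92 and -1.69, while its other probe changed by 0.05 at 24 h.

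Of 8 genes named in the study, 7 were measured, and RPRM was not. Among them, the study centres on CD137L, CDC42BPG and FST. TNFSF9, the gene of the T cell co-stimulatory ligand CD137L, was at -0.65 on the untreated array and at 0.10, 1.69 and 1.55 afterwards, so that it rose 5.07-fold at 24 h and 4.60-fold at 48 h without p53. On the treated p53+/+ arrays it was at 3.44, 3.67 and 3.60. TNFRSF9, the gene of its receptor CD137, was not well above background at 0 h and was at least 2.83-fold, 2.03-fold and 2.01-fold higher afterwards. FST, which encodes the activin antagonist follistatin, was at -2.42, -1.84, -0.93 and -0.71. On the array labelled p53+/+ 0 h FST was at -1.29, within 2-fold of each treated p53-/- level. On the treated p53+/+ arrays it was at -0.91, -0.70 and -1.26. CDC42BPG, a kinase that acts with CDC42, was above background at 24 h and 48 h only, at least 1.84-fold and 2.63-fold over the untreated array. On the treated p53+/+ arrays CDC42BPG was higher, at -2.43, -1.95 and -2.13. INHBB, an activin subunit, was above background at 48 h only and was at least 3.69-fold higher. BMP2, a bone morphogenetic protein, rose by 1.03 at 12 h and changed by 0.43 and 0.42 later, and the changes of GDF5, of the same family, were 0.48, 0.18 and 0.16.

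Few other cell death genes changed 2-fold. Of 13 pro-apoptotic BCL2 family genes, PMAIP1 among them, 0, 2 and 3 rose and none fell, beside 4.80%, 9.65% and 14.9% of all genes that rose. BIK, a BH3-only protein, was at -1.25, -0.36, 0.41 and 0.58, and HRK, another, was above background at 24 h and 48 h only and was at least 5.32-fold higher at 48 h. Among 11 pro-survival genes BIRC3, an inhibitor of apoptosis that is also an NF-κB target, was at 1.78, 1.53, 2.78 and 3.02. MCL1 changed by -0.51, -0.44 and -0.40 and BCL2L1 by -0.58, -0.35 and -0.20, both under 2-fold. The CDK inhibitors other than CDKN1A were led by CDKN1C, which encodes p57, with changes of -0.80, 1.51 and 1.02 (7 measured of 8). CDKN2A, the p16 locus, changed by -0.46, -0.20 and -0.14.

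Immediate early transcription factors rose mainly at 24 h and 48 h. Of 25 such genes 24 were measured, and 5, 8 and 11 rose, against 4.80%, 9.65% and 14.9% of all measured genes. Their median change was 0.18, 0.47 and 0.81, and -0.14, 0.17 and 0.51 against the array labelled p53+/+ 0 h. EGR2, an early growth response factor, was not well above background at 0 h and read -3.94, -2.94 and -1.55 afterwards, at least 2.47-fold higher at 12 h and 4.93-fold at 24 h. FOSB, an AP-1 subunit, was at -3.90, -3.05, -2.76 and -0.46, and NR4A3, an orphan nuclear receptor, was above background only at 24 h and 48 h. ATF3, a stress-induced factor, was at -0.77, 0.34, 1.41 and 2.30 by its brightest probe, while another of its 4 probes changed by -0.71, -0.42 and -0.66. All 4 had their highest level at 48 h. Of 12 measured genes of the EGF family and its receptors 3, 3 and 5 rose and none fell, with HBEGF at -3.48, -1.37, -1.27 and -0.30 and NRG1 at -3.52, -1.62, -1.36 and -1.76. Of 20 MAP kinase feedback genes 2, 2 and 4 rose, a share near that of all genes at 24 h and 48 h, and 2 fell at each time: DUSP5, a phosphatase of ERK, rose by 1.30, 1.48 and 2.11, and SPRY1, a Sprouty inhibitor, fell by 2.07, 1.67 and 1.32.

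Targets of NRF2, the regulator of antioxidant genes, declined with time. Of 24 measured, 4, 5 and 9 fell, where 5.60%, 5.37% and 7.49% of all measured genes did. Their median change was -0.20, -0.48 and -0.91, and AKR1B10 (1.15 at 24 h) was the only one to rise. SLC7A11, the cystine transporter that feeds glutathione synthesis, was at 3.03, 0.94, 0.24 and -1.30, a change of -4.32 by 48 h. GCLC, the catalytic subunit of the first enzyme of that synthesis, was at 3.00, 0.86, 1.05 and 0.84. AKR1C1, an aldo-keto reductase, was at 6.60, 5.93, 5.18 and 4.62. GCLC dropped once by 12 h, whereas SLC7A11 and AKR1C1 were lower at each later time. NQO1, often read as a marker of NRF2, changed by 0.52, 0.50 and -0.17. The integrated stress response list, which shares SLC7A11, did not move one way. Of its 26 genes 2, 2 and 5 rose, beside 4.80%, 9.65% and 14.9% of all measured genes, and 5, 6 and 3 fell. ATF5, a stress factor, rose by 1.86, 2.08 and 1.96, and NUPR1, a stress-induced chromatin protein, fell by 2.55, 2.47 and 1.62.

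Mesenchymal genes fell and genes of epithelial contacts rose, mainly at 48 h. Of 22 measured mesenchymal genes 2, 4 and 14 fell and 2, 0 and 1 rose, against falls of 7.49% of all genes at 48 h. POSTN, the matrix protein periostin, was at 2.79, 2.04, 1.44 and -0.60. TWIST1, a factor of the epithelial-mesenchymal transition, was at 2.13, 1.01, 0.87 and 0.54, and COL6A3, a chain of collagen VI, was at -1.64, -1.87, -2.23 and -4.17. VIM, the gene of vimentin, changed by -0.09, -0.06 and -0.12 and DCN, the proteoglycan decorin, by -0.16, 0.14 and 0.21. SNAI1, the factor Snail, rose by 1.21 at 12 h and 48 h. Of 15 measured epithelial adhesion genes 3, 6 and 8 rose, against 4.80%, 9.65% and 14.9% of all measured genes. CDH1, the gene of E-cadherin, was at -3.55, -3.30, -2.19 and -0.94. EPCAM, an epithelial adhesion molecule, was at -3.69, -2.52, -1.19 and -0.71, and CLDN1, a tight junction claudin, was at -4.76, -3.16, -1.90 and -1.34. OVOL2, a repressor of the mesenchymal state, was at -3.36, -2.17, -0.94 and -0.53. These 4 climbed at each time. CLDN4, another claudin, fell instead, at -2.54, -4.67, -4.46 and -3.55. The levels on the treated p53+/+ arrays were higher for CDH1 (1.42, 2.00 and 2.10) and lower for POSTN (-0.78 and -3.16, and not well above background at 48 h) at each matched time.

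**Figure D4:**
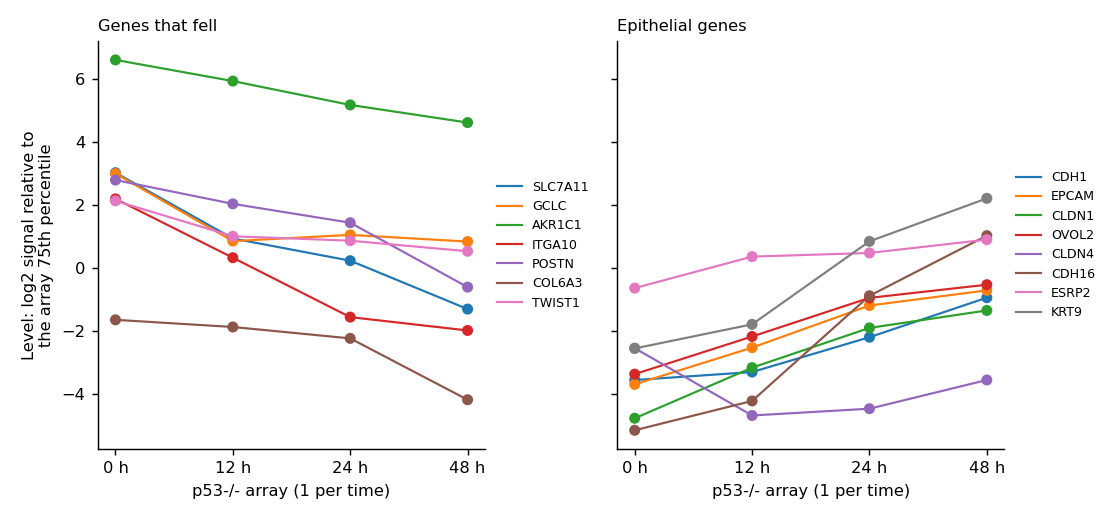
Levels on the 4 p53-/- arrays (log2 signal relative to the array's 75th percentile, 1 array per time) of 7 genes that fell (left) and 8 epithelial genes (right). SLC7A11, ITGA10 and POSTN lose 3.40 to 4.32 log2 units by 48 h, CDH16 gains 6.17, and CLDN4 is the only one on the right that ends below its start (heights of different genes are not comparable).

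The counts of the lists that follow stand beside rises of 4.80%, 9.65% and 14.9% of all measured genes. The falls of all measured genes were 5.60%, 5.37% and 7.49%. Of 18 TGF-β and YAP targets 2, 2 and 3 rose and 2, 4 and 3 fell, so that the share that rose at 48 h was near that of all genes. PMEPA1, an inhibitor of SMAD signalling, changed by -0.69, -1.42 and -1.27. ID2, an inhibitor of differentiation, rose by 1.60, 2.11 and 2.10. ITGB4, the hemidesmosome integrin of basal cells, fell from 5.06 to 3.58, 3.29 and 3.49, while the median change of the 17 measured basal genes was -0.19, -0.04 and 0.06. Of 28 measured squamous differentiation genes 1, 1 and 6 rose and 2 fell at each time. Housekeeping lists moved little. None of 53 measured oxidative phosphorylation genes rose and only ATP5F1D fell, at 48 h, and their median change was 0.06, 0.16 and 0.16. The 76 ribosomal protein genes had a median change of -0.15, -0.25 and -0.39, with 0, 1 and 3 falls (RPL27A, then also RPL3 and RPL10A) and no rise, but without scaling the medians were 0.19, 0.12 and 0.06. Of 32 ribosome biogenesis genes only NOLC1 rose, at 12 h and 48 h, and of 27 autophagy genes 0, 0 and 2 rose. Of 28 measured glycolysis and hypoxia genes 4, 4 and 2 rose and only PDK1 fell, at 48 h. The 16 genes of the unfolded protein response were led by HERPUD1, an endoplasmic reticulum degradation factor, which fell by 1.68 at 12 h and was the only one past 2-fold. Of 23 heat shock genes HSPB8, a small heat shock protein, was at least 2.99-fold, 5.73-fold and 4.75-fold higher and CRYAB, αB-crystallin, fell by 1.11, 2.01 and 2.61. Of 24 cholesterol synthesis genes 5 rose at 12 h, 1 at 24 h and 2 at 48 h. Of 54 replication-dependent histone genes 0, 0 and 4 rose and 2, 2 and 6 fell, against 5.60%, 5.37% and 7.49% of all genes that fell, led by the linker histone gene H1-3 at 2.24, 1.01, 0.26 and -0.29.

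Over all genes, with values below background set at their bound, the rises that held at 12, 24 and 48 h were led by IL6, CSF2 and GCH1, the first enzyme of tetrahydrobiopterin synthesis. GCH1 was at -4.50 and then at -0.65, -0.69 and -0.84. BDKRB1, the inducible bradykinin receptor, was at -2.55 and then at 0.87, 0.71 and 0.89. CARD9, an adaptor of innate immune receptors, and PPP4R4, a regulatory subunit of protein phosphatase 4, were not well above background before treatment, and were at least 4.25-fold and 3.69-fold higher at 12 h. Another CARD9 probe changed by 0.46, 1.05 and 0.68. TNPO1-DT, a transcript divergent from TNPO1, was at -3.52, -1.09, 1.94 and 1.87. The lasting falls were led by FLVCR2, a haem and choline transporter family member, which was well above background only at 0 h and lay at least 10.4-fold and 11.3-fold lower at 24 h and 48 h. Its probe was printed in 1 spot. On the array labelled p53+/+ 0 h (-7.08) and on the treated p53+/+ arrays FLVCR2 was not well above background, so that this fall rests on the untreated p53-/- array. PDK4, the kinase that turns off pyruvate dehydrogenase, was at 2.11, -1.27, -0.52 and -0.96, and DHRS9, a retinol dehydrogenase, at 1.44, -1.22, -1.29 and -1.37. ITGA10, a collagen-binding integrin, was at 2.20, 0.33, -1.55 and -1.98. All these changes share the untreated p53-/- array. On the array labelled p53+/+ 0 h, GCH1 was at -1.37, BDKRB1 at 0.31, PDK4 at -0.81 and DHRS9 at -0.62. Each of these lay within 2-fold of its treated p53-/- levels, so that these changes rest on the untreated p53-/- array. TNPO1-DT (-2.56) and ITGA10 (0.71) there differed at least 2-fold from the treated p53-/- levels, ITGA10 only at 24 h and 48 h.

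Some early changes shrank later. GALNT15, a glycosyltransferase, had the largest measured fall at 12 h (2.15 to -2.23) and stood at -0.57 and -0.61 later. PIF1, a DNA helicase, was at 1.72, -2.43, -0.91 and 0.47, and DEPP1, a stress gene induced by FOXO factors, changed by -4.07, -2.72 and -1.78. Both recovered part of their fall by 48 h. These falls rest in part on the untreated p53-/- array. Against the array labelled p53+/+ 0 h, DEPP1 changed by 0.91, 2.27 and 3.21, PIF1 by -0.93, 0.59 and 1.98, and GALNT15 by -1.61, 0.045 and 0.003. VEGFA, the vascular growth factor, rose by 1.67 and 1.11 and was within 2-fold of its start at 48 h (0.39). CFAP141, a ciliary protein, was well above background at 12 h only. Late changes were led by CDH16, a kidney cadherin, at -5.14, -4.21, -0.88 and 1.03, and KRT9, a keratin of palm and sole skin, at -2.55, -1.78, 0.85 and 2.21. FBP1, the gluconeogenic fructose-bisphosphatase, was above background at 24 h and 48 h only and at least 13.1-fold higher at 48 h. Late falls beside POSTN included GGT5, a gamma-glutamyltransferase, at 3.08, 2.34, 0.84 and -0.10, and CYP19A1, the gene of aromatase, which dropped under the background at 48 h, at least 5.72-fold lower than at 0 h.

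Genes differed by length and class. The 14412 measured protein-coding genes were put into 5 equal groups by genomic span in RefSeq. In the group of longest genes (89.6 to 2304 kb, median 155 kb) the median change was -0.19, -0.16 and -0.29, and 9.92% fell at 12 h and 17.5% at 48 h. In the other 4 groups the median change lay between 0.01 and 0.18 at each time, and 3.75% to 5.65% fell. The longest genes were also dimmer at 0 h, with a median level of -1.06 against -0.51 to -0.07 in the other groups, and the part of brightness in this difference was not tested. Among genes well above background on all 4 arrays, the median of the longest group minus that of the shortest was -0.20, -0.26 and -0.51, as against -0.21, -0.23 and -0.45 over all measured genes. Against the array labelled p53+/+ 0 h it was -0.03, -0.06 and -0.26. Of 672 measured long non-coding RNA genes 5.80%, 18.6% and 24.6% rose, against 4.68%, 9.21% and 14.3% of protein-coding genes. A gene above background on a treated array only is counted here too. The classes were not compared over genes above background on all 4 arrays, so the part of this filter in the difference was not tested.

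**Figure D5:**
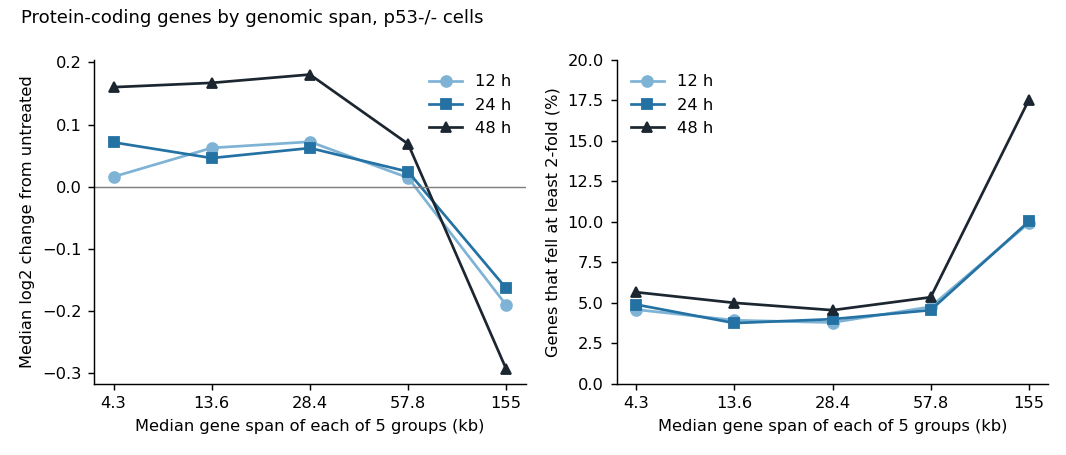
Measured protein-coding genes of p53-/- cells in 5 equal groups by genomic span (x axis, median span in kb), with the median log2 change (left) and the percentage that fell at least 2-fold (right) at the 3 times after treatment. The group of longest genes, with a median span of 155 kb, lies apart from the other 4 at all 3 times, at a median change of -0.16 to -0.29 and 9.92% to 17.5% falls.

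Markers of other cell types were checked beside these changes. Of 9 blood cell markers on the array, 4 were above background at 0 h and 5 at 24 h; the summed signal of the list, in units of the array's 75th percentile, was 4.60, 5.59, 6.76 and 7.85, and MS4A1, ITGAM and NKG7 were not well above background on any of the 4 arrays. Of 8 vessel markers 2 were above background at 0 h, 5 at 24 h and 7 at 48 h, with CLDN5 below background throughout and sums of 0.423, 0.402, 0.603 and 0.659. Of 10 mesenchymal markers 7 were above background at 0 h and 6 at 48 h. They summed to 241, 230, 241 and 233, most of it VIM and DCN, and COL1A2, COL3A1 and THY1 were not well above background on any array. The 13 basal markers summed to 253, 275, 220 and 226. Of 10 luminal markers 5 were above background at 0 h and 7 at 48 h, not PGR, ELF5 or KIT, and their sums were 40.8, 45.5, 39.3 and 64.5. In bulk RNA a change in the share of a cell type and a change in RNA per cell cannot be told apart. The part of these markers in the changes above was not tested.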

How the data were processed

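Total RNA of MCF10A cells was hybridised to 1-colour Agilent human expression arrays, 1 array per genotype and time. The intensity values are the processed signals of the scanner files as deposited by the authors, background-corrected by Agilent Feature Extraction 10.7.3.1 (the submitters' processing notes) and not scaled between arrays. The authors' table of the series held the same signals and was used only for this check (503808 of 503808 values equal).

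Control spots were left out, leaving 58717 spots and 42405 probes per array, as were spots marked as outliers by the software (233 to 370 on a p53-/- array), and the spots of a probe were averaged. Levels are log2 signals minus the log2 75th percentile of the array. Probes were named by RefSeq accession in GRCh38.p14 (27227 matched, 64.2%), and the brightest probe stands for a gene. A gene is measured where most spots of that probe are well above background on at least 1 p53-/- array. A fold against a value not well above background is a lower bound, set at the higher of that value and the lowest signal well above background on that array. With 1 array per group no test or p-value across arrays was possible, and the number of arrays limits the precision.

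Named are the study's genes, the 10 largest lasting rises and falls, the 5 largest rises and falls at each time, 5 early and 5 late ones in each direction, and the 4 members of each list with the largest mean change (all members in lists of up to 12), of which the text prints a selection; some genes are not reported here. Other genes were named after their values were seen. The members and gene lists were chosen with earlier results of these data known. Alternatives were median scaling, quantile normalization, no scaling, scaling on spike-in probes, normexp (limma 3.58.1, offset 50, on median signals), other filters, the mean of probes, a signal floor, the other untreated array and a 3-fold rule. Python 3.11.15, pandas 2.3.3 and R 4.3.3 were used. Arrays of the second cell line were not analysed here.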

Additional observations from a re-analysis of the deposited data

Results flagged for a closer look

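Of 36 lists and 117 genes named in the text, 3 lists and 13 genes changed in opposite directions in the genotypes at 12, 24 and 48 h, each measured from its own untreated array. A list was counted when each median lay beyond the median spot SD of 0.103 and a gene when each change was at least 2-fold. By sign alone, whatever the size, 10 lists and 32 genes did so. The difference was not tested, because each group is 1 array. The p53+/+ changes given here are all measured from the array labelled p53+/+ 0 h, which correlated more closely with the p53-/- arrays than with the treated p53+/+ ones. The p53-/- changes are measured from the untreated p53-/- array, so that a difference between the untreated arrays enters each contrast. The median change of the G1/S and E2F targets was 0.97, 0.99 and 0.79 without p53 and -1.34, -1.65 and -3.54 with it. For the homologous recombination and Fanconi genes it was 0.60, 0.72 and 0.48 against -1.01, -1.21 and -3.11, and for the secreted inflammatory and senescence factors 0.31, 0.38 and 0.57 against -0.41, -0.35 and -0.48. In these p53+/+ medians, dim values stand at the lowest signal well above background. The p53+/+ values at 48 h, here and below, rest on the array without spike-in signal above background. Against the array labelled p53+/+ 0 h, DEPP1 in p53-/- cells changed by 0.91, 2.27 and 3.21. At 48 h CLDN4 changed by 1.15, CCNE1 by -0.65 and CDC25A by -0.47. On that baseline the p53-/- medians of the G1/S genes were 0.41 at 12 h and 0.22 at 48 h. Those of the recombination and Fanconi genes were 0.35 and 0.25, and those of the secreted factors -0.78 and -0.59.

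Among genes used in S phase, CDC6 changed by 2.23, E2F2 by 2.12, CCNE1 by 1.38, CDC25A by 1.25, CLSPN by 1.38 and EXO1 by 1.37 at 48 h in p53-/- cells. In p53+/+ cells the 48 h changes of CCNE1, CDC25A and EXO1 were -3.22, -4.16 and -6.44, while CDC6, E2F2 and CLSPN were not well above background by then and lay at least 4.93-fold, 155-fold and 17.4-fold lower. Among other genes that rose without p53, IL6 changed by 6.03 and ID2 by 2.10 at 48 h, against -3.06 and -3.09 in p53+/+ cells. TRAF1 read 2.61 log2 units higher at 48 h, from a level not well above background (at least 2.60-fold higher), and lay at least 2.49-fold lower in p53+/+ cells, where it was not well above background after ADR. The genes that fell without p53 and rose with it were CLDN4 (-1.01 at 48 h, against at least 4.11-fold higher), DEPP1 (-1.78 against 2.58), NUPR1 (-1.62 at 48 h, against 8.59-fold higher) and SPRY1 (-1.32 against 2.62).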

How the results depend on the processing

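Of the 6 counts of genes that rose or fell, none moved by over 1.5 times with median scaling, quantile normalization, no filter, the mean of a gene's probes or a floor on dim signals. Without scaling, 1619, 2706 and 4118 genes rose and 419, 380 and 492 fell at 12, 24 and 48 h, and with scaling on 6 spike-in probes 1593, 2261 and 4168 rose and 425, 486 and 486 fell. The median change of all genes was then 0.33, 0.39 and 0.52 without scaling and 0.33, 0.27 and 0.53 with the spike-ins. With normexp background correction 267, 595 and 820 rose and 382, 459 and 771 fell. Over genes well above background on all 4 arrays, 452, 827 and 1096 rose and 568 fell at 12 h, where fewer genes were counted. With a 3-fold rule, 216, 643 and 1317 rose and 274, 253 and 392 fell. Against the array labelled p53+/+ 0 h, 352 rose and 304 fell at 12 h. The share of rises among changed genes went from 46.2% to 57.6% at 12 h with median scaling, to 78.9%, 82.3% and 89.6% with the spike-ins, and from 66.5% at 48 h to 51.5% with normexp and 52.5% above background on all 4 arrays. The difference between the longest and the shortest genes was -0.13 at 24 h and -0.30 at 48 h with normexp, and -0.0314, -0.0648 and -0.26 against the array labelled p53+/+ 0 h. Apart from the scaling alternatives, whose construction adds a shift to all genes, the cause of these moves was not tested.

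Without scaling the medians of the NRF2 targets (0.15) and mesenchymal genes (0.02) at 12 h were above 0. RSAD2 at 12 h, below background there, read -0.0652 with normexp and -0.28 with the floor. All other sign changes of at least 2-fold values came when the array labelled p53+/+ 0 h replaced the untreated p53-/- one, which put the NF-κB targets at -0.35 at 24 h and -0.51 at 48 h and turned 65 values of single genes. At 12 h these were ASPM (0.0599), ATF3 (-0.72), BMP2 (-0.24), CDC25A (-0.0751), CENPE (0.11), CLDN1 (-0.65), CLDN4 (0.029), CSF2 (-0.93), DEPP1 (0.91), DUSP5 (-0.74), FLVCR2 (0.58), H1-3 (0.99), HBEGF (-0.96), HSPB8 (-0.026), IFIT1 (1.23), IL1B (-1.501), IL6 (-0.89), LIF (-2.08), NOLC1 (-0.0507), PLK2 (-0.26), TNFAIP3 (-1.35), TWIST1 (0.17), VEGFA (-0.25) and WEE1 (0.0063). At 24 h these were ASPM (0.75), CCNE1 (-0.011), CDC25A (-0.38), CENPE (0.28), CLDN4 (0.24), CSF2 (-1.34), DEPP1 (2.27), DUSP5 (-0.55), FOSB (-0.75), GALNT15 (0.045), H1-3 (0.24), HBEGF (-0.86), ICAM1 (-0.23), IL1B (-1.97), KIF20A (1.13), LIF (-2.98), PDK4 (0.28), PIF1 (0.59), PLK1 (0.20), TNFAIP3 (-0.73), TP53INP1 (0.56), TRAF1 (-0.35), TWIST1 (0.025) and VEGFA (-0.80). At 48 h these were CCNE1 (-0.65), CDC25A (-0.47), CENPE (0.36), CLDN4 (1.15), CSF2 (-0.57), DEPP1 (3.21), FLVCR2 (0.22), GALNT15 (0.003), H2AX (0.043), ICAM1 (-0.29), IL1B (-1.43), LIF (-3.02), NRG1 (-0.11), PIF1 (1.98), PLK1 (1.18), TNFAIP3 (-0.71) and TRAF1 (-0.56). The cause was not tested. Other probes of TP53INP1 and ATF3 differed in sign from the brightest at 1 and 3 of the times, of 23 named genes with several measured probes.

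No paired analysis was possible because the labels give no replicate numbers and each time is 1 array. For the same reason no array was left out in turn, and the spread between cultures is unknown. Between 55.9% and 62.9% of probes were well above background on a p53-/- array, and dimmer ones give only bounds.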

Other observations

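Among probes bright enough to be measured in p53-/- cells, 7714 matched no RefSeq gene by accession and enter none of the counts above. Of these, 254 rose and 438 fell at 12 h (3.29% and 5.68%), 554 rose and 342 fell at 24 h (7.18% and 4.43%), and 720 rose and 548 fell at 48 h (9.33% and 7.10%). Among 341 measured transcribed pseudogenes 7.62%, 10.3% and 17.3% rose at the 3 times, although probes of a pseudogene can also bind the parent transcript. Probes above background on a treated array only are counted here too.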
